A study of Rattus norvegicus with 17 samples.

Results

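Laminins, nidogens and the basement membrane proteoglycans perlecan and agrin were followed in rat gastrocnemius muscle, a calf muscle, by RNA sequencing. The 10 genes chosen were Lama2, Lama4, Lama5, Lamb1, Lamb2, Lamc1, Nid1, Nid2, Hspg2 and Agrn. Of these, 9 were found by gene name among the 32495 named entries of the deposited count table. Hspg2, which encodes perlecan, stood under no entry of that name, but RefSeq lists 1 clone-based entry of the table as a synonym of Hspg2. That entry is given below as the perlecan entry, and counts over the family refer to the 9 genes matched by name unless it is mentioned.

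Muscle came from rats that carried a tumor and received chemotherapy (6 samples), from rats that carried a tumor without chemotherapy (5 samples) and from healthy rats (5 samples), and all 3 groups ate the control diet. The labels name neither the tumor nor the agent, dose or timing of the chemotherapy, and give no strain, genotype, sex or age. They do not say whether each library came from a separate animal, so the tests measure the spread between these libraries. No group had chemotherapy without a tumor, so chemotherapy given to tumor-bearing rats can be set against tumor alone but not against chemotherapy alone.

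The basement membrane is a thin sheet of extracellular matrix that wraps each muscle fiber, blood vessel and nerve. Laminins, trimers of an alpha, a beta and a gamma chain, form one of its networks and type IV collagen the other, and nidogens and perlecan help to link them. In muscle, the laminin alpha-2 chain encoded by Lama2 binds dystroglycan on the fiber surface, and loss of this chain causes a congenital muscular dystrophy in humans and mice. Agrin, the other heparan sulfate proteoglycan described here, organizes acetylcholine receptors at the neuromuscular junction.

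The deposited libraries held 3020821 to 15719080 counts on named entries. Libraries 11 and 12, both of the chemotherapy group, had nearly the same counts (chi-square over its degrees of freedom 2.033, with 5.162 for the next closest pair within a group), so they were summed and are called library 11. Markers of skeletal muscle fibers were abundant in every sample: Acta1, the skeletal actin, ranged from 33501 to 60172 CPM in the chemotherapy group, from 26140 to 60456 CPM in the tumor group and from 53754 to 95550 CPM in healthy muscle. CPM, a library's counts scaled to a common total with the TMM factor for library composition, is not corrected for transcript length, so levels of different genes are not ranked. The column names of the table also carried alignment names that ended in MB (healthy libraries 1 to 4 and library 11) or VM (healthy library 5, every tumor library, and chemotherapy libraries 13 to 17), and the labels do not say what the letters stand for. Healthy libraries 1, 3 and 4 were all above healthy libraries 2 and 5 in 9 of the 10 genes, Lama4 being the exception, and the main results are given with and without them.

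All 10 genes had lower mean levels in muscle of tumor-bearing rats given chemotherapy than in healthy muscle, and the tumor group without chemotherapy lay between them for each gene. Against healthy muscle, 7 of the 9 genes matched by name were lower in the chemotherapy group. They had an adjusted p below 0.05 in edgeR's quasi-likelihood test, and the perlecan entry was called lower too. Among all 11856 genes tested, 6.41% were called lower and 7.3% higher in that comparison. No gene of the family was called higher. All 9 had a negative log2 fold change, as did 51.2% of all genes, and all 9 had an unadjusted p below 0.05, against 17.5% of all genes that were lower at that level. The median log2 fold change of the 9 genes was -0.82, against -0.02 for all genes tested. Lamb2 and Agrn were the 2 that did not pass. Here and below, after chemotherapy means the group that had both a tumor and chemotherapy. Fell and rose mean a lower or higher level than in healthy muscle. In that comparison the tumor and the chemotherapy cannot be told apart.

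These calls depended on single libraries and on the way other variation was handled. They were all lost when any 1 of healthy libraries 1, 3 and 4 or chemotherapy libraries 13, 14 and 15 was left out, where edgeR called 0 genes in the whole table. The median log2 fold change of the 9 genes stayed between -0.85 and -0.75 in these 6 fits, against -0.82 with all samples. Over all 16 fits that left out 1 sample, the largest adjusted p in edgeR was 0.0836 for Lama2 and 0.0997 for Lama4, the lowest and highest among the 7 genes and the perlecan entry. Without chemotherapy library 16, Lama4 and Nid2 missed the threshold and 5 genes stayed called. Without healthy libraries 1, 3 and 4 together, 0 of the 9 genes were called and their median log2 fold change was -0.39, with -0.48 ± 0.19 for Lama2, -0.63 ± 0.25 for Lamb1, -0.59 ± 0.21 for Lamc1 and -0.69 ± 0.33 for the perlecan entry. Each of these 4 had an adjusted p of 0.899 in edgeR. Except for the fit without library 16, every fit named here, and those with the surrogate variable or the alignment name described further on, called 0 genes of the whole table in this comparison, so the counts of matrix, receptor and marker genes given below were also 0 in them.

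**Figure D1:**
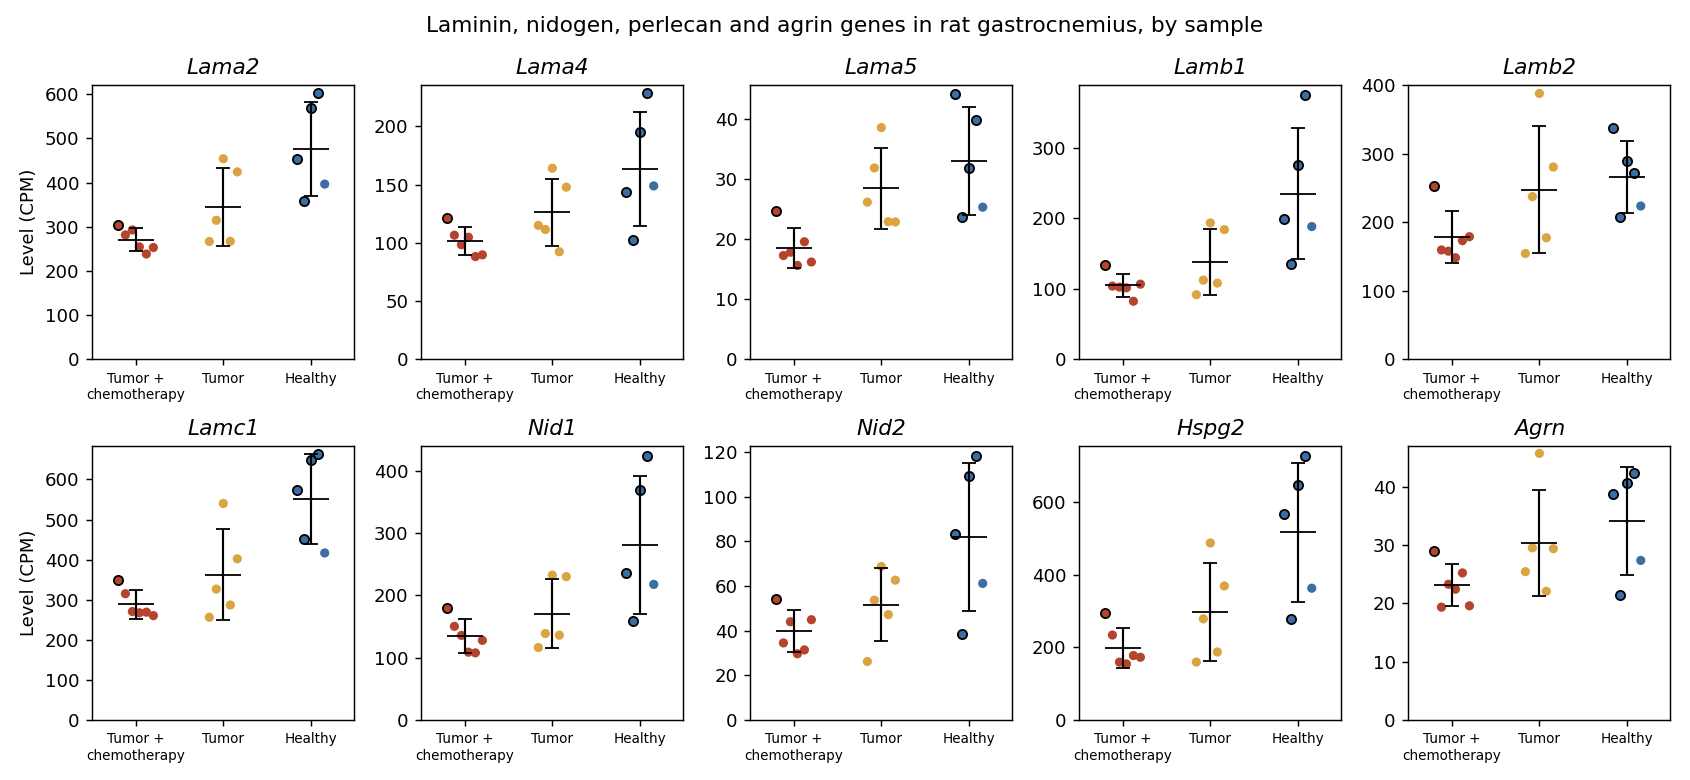
Levels of the 10 genes by sample, in CPM on the vertical axis, with the tumor with chemotherapy, tumor and healthy groups from left to right. Points are samples, bars are the mean ± SD and points with a black edge are libraries whose alignment names end in MB. In Lama2, Lamb1 and Lamc1 all 6 chemotherapy samples lie below all 5 healthy samples, as in 1.97% of all genes tested.

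Before the levels of each gene, the promoters of 4 of them are printed: the 3 genes whose chemotherapy and healthy samples did not overlap, and perlecan, which had the largest fold change. They are the first 250 bases of the gene's promoter window in RefSeq's rat assembly GRCr8, upstream of the start that the promoter table uses, written 5′ to 3′ on the strand of the gene. RefSeq spans a gene over all its transcripts, and by that span the Lamc1 window lies upstream of the gene, the Lama2 and Hspg2 windows reach a little way into it and nearly all of the Lamb1 window lies inside it. Capitals mark GGGCGG or, on the other strand, CCGCCC, the core of the GC box that Sp1-type factors are known to bind. The regions are chr1:19491896-19492145 on the plus strand for Lama2, chr6:53562846-53563095 on the plus strand for Lamb1, chr13:68051987-68052236 on the minus strand for Lamc1 and chr5:154960596-154960845 on the plus strand for Hspg2.
Lama2: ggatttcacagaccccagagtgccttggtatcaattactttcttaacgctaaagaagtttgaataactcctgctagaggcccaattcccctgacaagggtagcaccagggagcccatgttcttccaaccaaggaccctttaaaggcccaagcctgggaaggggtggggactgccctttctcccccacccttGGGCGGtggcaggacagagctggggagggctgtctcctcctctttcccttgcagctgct
Lamb1: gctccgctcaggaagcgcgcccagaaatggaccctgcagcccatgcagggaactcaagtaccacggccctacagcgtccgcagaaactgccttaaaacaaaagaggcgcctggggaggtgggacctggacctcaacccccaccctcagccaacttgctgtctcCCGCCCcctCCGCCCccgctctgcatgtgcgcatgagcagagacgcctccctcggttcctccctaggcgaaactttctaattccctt
Lamc1: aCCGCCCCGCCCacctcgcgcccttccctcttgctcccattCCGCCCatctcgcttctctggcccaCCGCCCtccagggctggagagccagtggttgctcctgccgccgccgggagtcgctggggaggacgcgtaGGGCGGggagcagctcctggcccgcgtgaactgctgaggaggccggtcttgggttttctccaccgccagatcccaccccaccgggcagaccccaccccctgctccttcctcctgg
Hspg2: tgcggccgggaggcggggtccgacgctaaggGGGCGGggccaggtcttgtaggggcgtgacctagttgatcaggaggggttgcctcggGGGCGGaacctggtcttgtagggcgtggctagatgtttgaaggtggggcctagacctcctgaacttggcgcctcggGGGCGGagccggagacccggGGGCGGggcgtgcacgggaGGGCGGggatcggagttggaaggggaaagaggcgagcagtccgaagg
The motif stood 1 time in the Lama2 promoter, 2 times in that of Lamb1, 5 times in that of Lamc1, where 2 matches overlap, and 5 times in that of Hspg2. RefSeq gave promoters for 8 of the 10 genes, and 6 of these 8 held the motif on either strand. The Lama4 and Agrn windows held none, and those of Nid1 and Agrn lie inside the gene's span, so that they need not hold its main promoter. In all 33469 promoters of the same length, 30.5% held it. CCAAT on either strand was found in 2 of the 8 windows, those of Lama2 and Nid1, and in 34.0% of all promoters. TGANTCA, the AP-1 motif, was found in 0 of the 8 and in 6.34% of all. A match describes letters in these windows and is not evidence that a factor binds there.

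Lama2 encodes the alpha chain of the main laminin around muscle fibers. Its level in the chemotherapy group ranged from 238.0 to 303 CPM with a median of 268. The tumor samples had 266, 314, 454, 267 and 424 CPM, and the healthy samples had 452, 357.5, 569, 603 and 396 CPM. The chemotherapy and healthy samples did not overlap, while the tumor samples overlapped both groups. After chemotherapy Lama2 fell to 270.3 ± 25.7 CPM (SD, n = 6), against 476 ± 107 CPM in healthy muscle (n = 5), a log2 fold change of -0.82 ± 0.17 (SE) with an adjusted p of 0.0261 in edgeR. Of all genes tested, 1.97% had every chemotherapy sample below every healthy sample. The tumor mean was 345 ± 88.5 CPM (n = 5).

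Lama4 encodes the alpha chain found mostly in the basement membranes of blood vessels. It ranged from 88.1 to 121 CPM with a median of 101.5 CPM in the chemotherapy group. Tumor samples 6 to 10 had 115, 111, 164, 92.3 and 148 CPM, and the healthy samples had 144, 102, 195, 229 and 149 CPM. Healthy library 2, at 102 CPM, was the only healthy sample within the range of the chemotherapy group. The mean fell to 101 ± 12.2 CPM after chemotherapy, against 164 ± 49.0 CPM in healthy muscle, with a log2 fold change of -0.69 ± 0.18 and an adjusted p of 0.0301 in edgeR.

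Lama5 encodes another alpha chain of vessels and of the neuromuscular junction, and it was covered by only 50 to 590 counts per sample. It ranged from 15.6 to 24.7 CPM with a median of 17.5 CPM in the chemotherapy group, from 22.8 to 38.6 CPM in the tumor group and from 23.6 to 44.2 CPM in healthy muscle. Only library 11 of the chemotherapy group, at 24.7 CPM, reached the range of either other group. Lama5 fell to 18.5 ± 3.32 CPM after chemotherapy, against 33.0 ± 8.96 CPM in healthy muscle, with a log2 fold change of -0.82 ± 0.19 and an adjusted p of 0.0264 in edgeR. Among the 10 genes it had the most negative log2 fold change of chemotherapy against tumor alone, -0.61 ± 0.19, with an unadjusted p of 0.00415 and an adjusted p of 0.778 in edgeR. The 3 alpha chains were therefore all called lower after chemotherapy against healthy muscle, and none against tumor alone.

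The beta chains differed in their calls, although whether they differed in response was tested only through their ratio, given further on. Lamb1, a broadly used beta chain, ranged from 82.2 to 133 CPM with a median of 103.0 CPM in the chemotherapy group. The tumor samples had 91.5, 112, 194, 108 and 184 CPM, and the healthy samples had 199, 136, 276, 375 and 188 CPM. The lowest healthy sample, library 2, lay just above the highest chemotherapy sample, library 11. Of all genes, 1.97% had no overlap in this direction. Lamb1 fell to 105 ± 16.4 CPM after chemotherapy, against 235 ± 93.1 CPM in healthy muscle, with a log2 fold change of -1.16 ± 0.24 and an adjusted p of 0.0261 in edgeR.

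Lamb2 encodes the beta chain concentrated at the neuromuscular junction. It ranged from 148 to 252.3 CPM with a median of 166 CPM in the chemotherapy group. In the tumor group it was 154, 237, 388, 177 and 281 CPM, and in the healthy group 338, 208, 289, 272 and 224 CPM. Of the chemotherapy samples, only library 11, at 252.3 CPM, lay within the healthy range, and the other 5 were below it. The means were 178 ± 38.0 CPM after chemotherapy and 266 ± 52.2 CPM in healthy muscle, with a log2 fold change of -0.58 ± 0.21 and an adjusted p of 0.0608 in edgeR, above the threshold. DESeq2 gave -0.57 ± 0.22 with an adjusted p of 0.0436.

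Lamc1 encodes the gamma chain shared by most laminins. It ranged from 260.1 to 349.9 CPM with a median of 269 CPM in the chemotherapy group. Values in the tumor group were 256, 326, 540.1, 287 and 402 CPM, and the healthy samples had 573, 451, 649.7, 664 and 417 CPM. All 6 chemotherapy samples were below all 5 healthy samples, as in 1.97% of all genes. Of the 5 tumor samples, 4 were below the lowest healthy sample too. Lamc1 fell to 288 ± 35.9 CPM after chemotherapy, against 551 ± 113 CPM in healthy muscle, with a log2 fold change of -0.93 ± 0.18 and an adjusted p of 0.0261 in edgeR.

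Nidogens are linker glycoproteins that join the laminin and type IV collagen networks. Nid1 ranged from 108 to 179.6 CPM with a median of 132 CPM in the chemotherapy group. The tumor samples had 116, 139, 233, 136 and 230.2 CPM, and the healthy samples had 236, 159, 369.6, 425 and 218 CPM. Healthy library 2 was the only healthy sample within the chemotherapy range. Nid1 fell to 135 ± 27.2 CPM after chemotherapy, against 282 ± 111 CPM in healthy muscle, with a log2 fold change of -1.06 ± 0.24 and an adjusted p of 0.0261 in edgeR.

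Nid2, the second nidogen, ranged from 29.6 to 54.2 CPM with a median of 39.2 CPM in the chemotherapy group, from 26.1 to 68.7 CPM in the tumor group and from 38.4 to 118 CPM in healthy muscle. Its healthy samples were the most spread among the 10 genes, with a highest value 3.08 times the lowest. Nid2 fell to 39.7 ± 9.53 CPM after chemotherapy, against 82.1 ± 33.2 CPM in healthy muscle, with a log2 fold change of -1.04 ± 0.26 and an adjusted p of 0.029 in edgeR.

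Perlecan is a large heparan sulfate proteoglycan of vascular and muscle basement membranes. Its entry ranged from 154 to 295 CPM with a median of 175 CPM in the chemotherapy group. The tumor samples had 159, 278, 488, 187 and 369 CPM, and the healthy samples had 569, 277, 648, 727 and 363 CPM. Only library 11 of the chemotherapy group was above the lowest healthy sample, library 2. The perlecan entry fell to 199 ± 55.1 CPM after chemotherapy, against 517 ± 190.5 CPM in healthy muscle. Its log2 fold change of -1.38 ± 0.29, with an adjusted p of 0.0261 in edgeR, was the most negative of the 10 genes.

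Agrn, which encodes agrin, had 64 to 628 counts per sample. It ranged from 19.4 to 29.1 CPM with a median of 22.9 CPM in the chemotherapy group, from 22.1 to 45.8 CPM in the tumor group and from 21.4 to 42.4 CPM in healthy muscle. The 3 ranges overlapped. The means were 23.2 ± 3.66 CPM after chemotherapy and 34.1 ± 9.22 CPM in healthy muscle, with a log2 fold change of -0.56 ± 0.20 and an adjusted p of 0.0589 in edgeR, which did not pass, while DESeq2 gave an adjusted p of 0.0459.

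**Figure D2:**
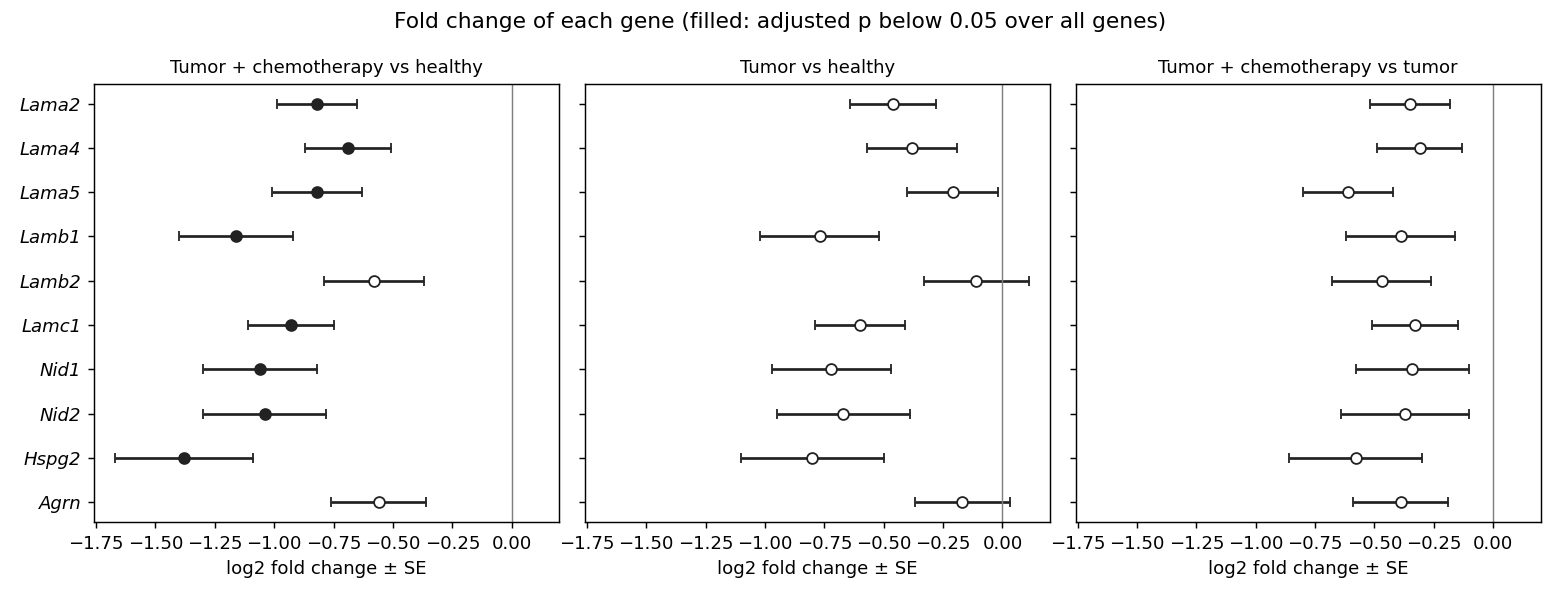
Log2 fold change ± SE of each of the 10 genes in the 3 comparisons, from edgeR. Filled points have an adjusted p below 0.05. The filled points are all in the comparison of chemotherapy with healthy muscle, and every estimate lies below 0.

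Tumor without chemotherapy was set against healthy muscle to see how muscle of rats with an untreated tumor differed. None of the 9 genes was called (0.0% of all genes were called lower in edgeR and 0.0% higher), and 5 of the 9 had an unadjusted p below 0.05, against 9.12% of all genes that were lower at that level. All 9 log2 fold changes were negative, as were 49.0% of those of all genes, and for 0 of the 9 genes did every tumor sample lie below every healthy sample (0.557% of all genes). DESeq2 called 11 genes higher and 18 lower across the table and limma-voom 0, and neither called any of the 9. Lamb1 and Nid1 had the most negative log2 fold changes among the 9 genes, -0.77 ± 0.25 and -0.72 ± 0.25, with adjusted p of 0.216 and 0.229 in edgeR. Perlecan had -0.80 ± 0.30 and an adjusted p of 0.242 in edgeR. Lamc1 had the smallest unadjusted p, 0.0045, and a log2 fold change of -0.60 ± 0.19. Lamb2, Agrn and Lama5 had values nearest 0, at -0.11 ± 0.22, -0.17 ± 0.20 and -0.21 ± 0.19, and each of these 3 turned positive in some of the other fits. When healthy library 2 was left out, Lamb1 and Nid1 passed, with adjusted p of 0.0445 and 0.047 in edgeR. That fit called 245 genes higher and 259 lower of 11995 over the whole table, against 0 in either direction with all samples. Without healthy libraries 1, 3 and 4, Lamb1 had -0.24, Nid1 -0.15, Lamc1 -0.26 and the perlecan entry -0.12, and the median of the 9 genes was 0.00, with none called.

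Chemotherapy was then set against tumor alone, the comparison that bears on the treatment within tumor-bearing rats. The 9 genes all had negative log2 fold changes, as did 49.4% of all genes, with a median of -0.37 against 0.0 for all genes tested, and none was called by edgeR, where 0.0% of all genes passed in either direction. At an unadjusted p below 0.05, 3 of the 9 genes were lower, against 3.81% of all genes. DESeq2 called 1 gene higher and 7 lower across the table and limma-voom 0, with 0 of the 9 genes among them in either. Lamb2 had -0.47 ± 0.21, the perlecan entry -0.58 ± 0.28 and Lamc1 -0.33 ± 0.18. The chemotherapy samples of each of the 10 genes overlapped the tumor samples, and 0.295% of all genes had every chemotherapy sample below every tumor sample. The 3 comparisons share samples, so their fold changes are not independent of one another.

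**Figure D3:**
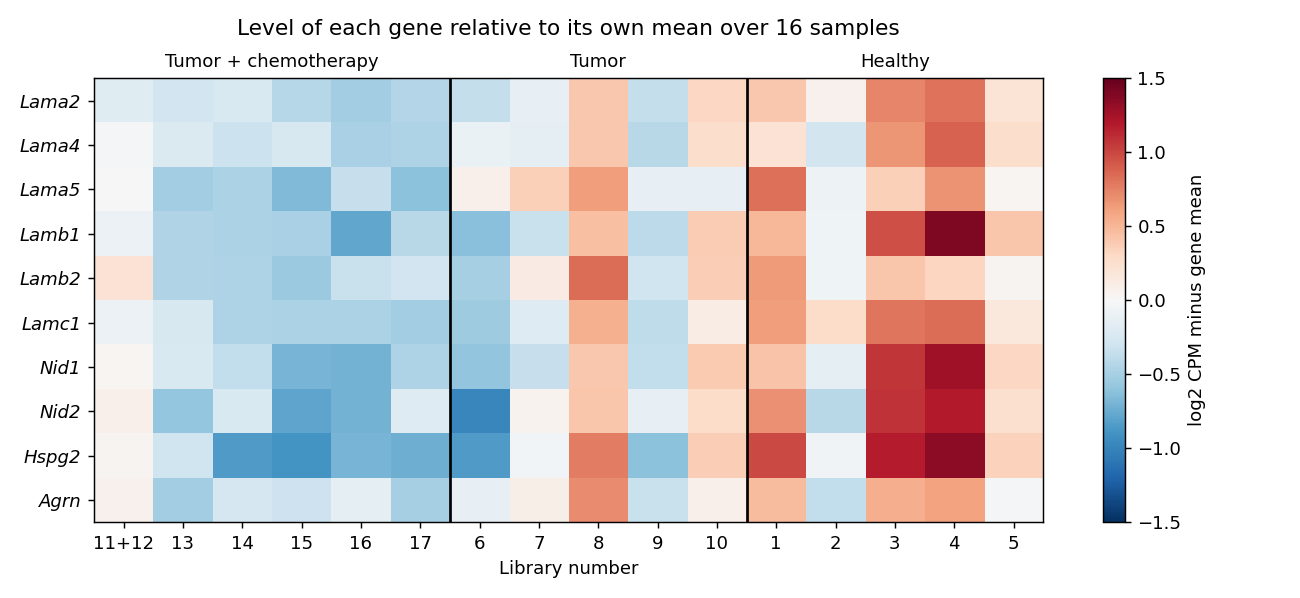
Log2 CPM of the 10 genes in 16 samples, each gene centred on its own mean, with the chemotherapy, tumor and healthy libraries from left to right. Healthy libraries 1, 3 and 4, and tumor library 8, are high across nearly all genes, and chemotherapy libraries 13 to 17 are low across them.

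Much of the spread within a group was shared by the 10 genes. Library 11 was the highest chemotherapy sample and library 8 the highest tumor sample for all 10 genes, and healthy library 4 was the highest healthy sample for 8 genes. Healthy library 2 was the lowest healthy sample for 9 genes. Averaged over the 9 genes matched by name, centred log2 levels were 0.00 in library 11 and between -0.52 and -0.36 in the other 5 chemotherapy libraries. In the tumor group they were -0.42, -0.06, 0.53, -0.31 and 0.23, and in healthy libraries 1 to 5 they were 0.53, -0.12, 0.74, 0.89 and 0.18. Tumor library 8 was thus as high as healthy library 1, and healthy library 2 lay below 3 of the 5 tumor libraries on this mean. A surrogate variable, a per-sample score of variation estimated over the whole table, was 0.284, 0.387 and 0.537 in healthy libraries 1, 3 and 4, 0.262 in tumor library 8 and -0.308 to -0.073 in chemotherapy libraries 13 to 17. With that score as a covariate, 0 of the 9 genes were called in the comparison of chemotherapy with healthy muscle (edgeR) and their median log2 fold change was -0.22. The score itself differed between the groups, with means of -0.166 in the chemotherapy group, -0.026 in the tumor group and 0.226 in healthy muscle, so a fit with it also takes out part of the group difference. What the score stands for was not tested.

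Signs of library make-up moved with these levels. The share of even numbers among counts from 1 to 10 was 45.9% to 51.3% in the deposited chemotherapy libraries. It was 53.2% in tumor library 8 and 47.9% to 50.9% in the other 4 tumor libraries. In healthy libraries 1, 3 and 4 it was 52.3%, 56.5% and 59.5%, against 46.7% in library 2 and 51.7% in library 5. The libraries highest for the family within the tumor and healthy groups were thus also highest in this share. The share of counts on entries without a gene name was likewise highest in these libraries within their groups. It was 0.272% in tumor library 8 and 0.279%, 0.247% and 0.373% in healthy libraries 1, 3 and 4. In the chemotherapy libraries it was 0.102% to 0.195%. Total counts went partly the same way. Tumor library 8 and healthy library 4 had the most of their groups, 10857477 and 15719080. Tumor library 6 and healthy library 2 had the fewest, 5422118 and 3894210. Chemotherapy libraries 11 and 12, summed here, had 9449108 and 10516783 (3020821 to 9419826 in the others). Not all followed. On the family's mean, tumor library 10 (5971145) was above library 7 (9768478), and healthy library 1 (6264940) above library 5 (7977064). The part of these shifts in the family's levels was not tested.

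Between pairs of genes, Lamb1 and Nid1 had the most alike centred levels, with a root mean square difference of 0.106 in log2 CPM over 16 samples. Lama2 and Lamc1, which can occur in 1 laminin trimer, differed by 0.13. The perlecan entry and Agrn, the 2 proteoglycans, were the least alike at 0.451. Pairs of genes from 1 sample share its library and scaling, so these values describe the samples and are not a test.

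The libraries ending in MB and VM offered a partial check within 1 alignment name. Among VM libraries, with 5 chemotherapy, 5 tumor and 1 healthy sample, the log2 fold change of chemotherapy against healthy muscle was -0.59 ± 0.26 for Lama2, and that of Lamb1 was -0.93 ± 0.30. It was -0.60 ± 0.28 for Lamc1 and -1.02 ± 0.41 for the perlecan entry. The single healthy sample was assumed to vary like the other groups, so only these estimates are read. Among MB libraries, library 11 had 303 CPM of Lama2 against 357.5 to 603 CPM in healthy libraries 1 to 4, and 349.9 CPM of Lamc1 against 451 to 664 CPM. For perlecan it had 295 CPM, inside the range of 277 to 727 CPM of those healthy libraries. Library 11 was also inside their range for Lama4, Lama5, Lamb2, Nid1, Nid2 and Agrn. It was below for Lamb1, at 133 CPM against 136 to 375 CPM. In Lama2, Lamb1 and Lamc1 all chemotherapy samples lay below all healthy samples, so library 11 could only be below there. With 1 healthy VM sample and 1 chemotherapy MB sample, the alignment name and the group can be separated only through these 2 samples.

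**Figure D4:**
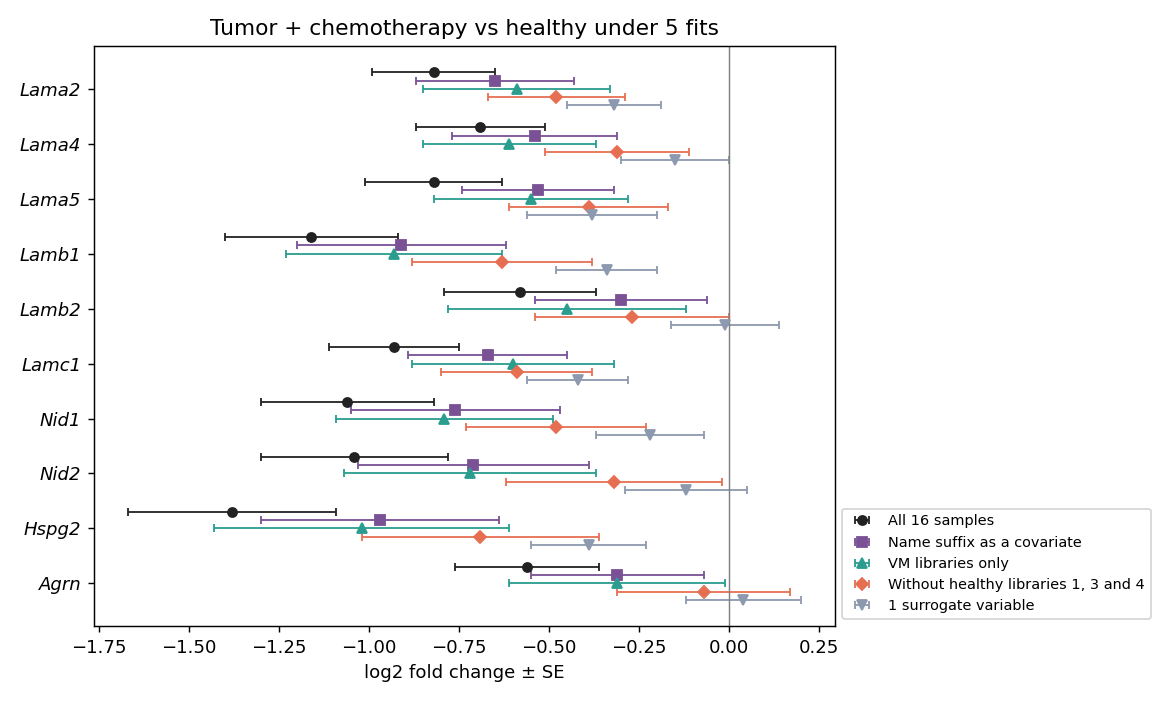
Log2 fold change ± SE of chemotherapy against healthy muscle for the 10 genes under 5 fits. The median of the 9 genes matched by name is -0.82 with all 16 samples and nearer 0 in the other fits. It is -0.65 with the name suffix, -0.60 with VM libraries only, -0.39 without healthy libraries 1, 3 and 4 and -0.22 with the surrogate variable. The fits with the suffix, without the 3 healthy libraries and with the surrogate variable call no gene. The VM fit has 1 healthy sample, so only its estimates are read here.

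Within-sample ratios compare related chains or proteins of basement membranes, and they do not depend on scaling between samples. The 5 ratios were tested in 3 comparisons by two-sided exact permutation tests, 15 tests in all, with Benjamini-Hochberg adjustment. The log2 ratio of perlecan to agrin was 3.33, 3.58, 2.76, 2.77, 2.80 and 3.12 in the chemotherapy samples and 2.63, 3.23, 3.41, 3.07 and 3.64 in the tumor samples. It was 3.87, 3.68, 3.98, 4.09 and 3.72 in the healthy samples, and no sample of either tumor-bearing group reached the lowest healthy value. The difference was -0.81 for chemotherapy against healthy muscle, with means of 3.06 ± 0.34 and 3.87 ± 0.18 (exact p = 0.00433, the smallest that 6 against 5 samples can give, adjusted 0.0595). For tumor against healthy muscle the difference was -0.67, with means of 3.19 ± 0.38 and 3.87 ± 0.18 (exact p = 0.00794, the smallest that 5 against 5 samples can give, adjusted 0.0595). Neither passed after adjustment, the differences without healthy libraries 1, 3 and 4 were -0.64 after chemotherapy and -0.50 in the tumor group, and chemotherapy and tumor differed by -0.13 (exact p = 0.541).

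The other 4 ratios did not pass either. The log2 ratio of Lamb1 to Lamb2 was -0.75 ± 0.20 after chemotherapy and -0.25 ± 0.48 in healthy muscle, a difference of -0.51 with an exact p of 0.0519 and an adjusted p of 0.208. For the tumor group it was -0.83 ± 0.20, a difference from healthy muscle of -0.59 with an exact p of 0.0556 and an adjusted p of 0.208. Lama4 to Lama2 differed between chemotherapy and healthy muscle by 0.15, Lama5 to Lama2 by -0.01 and Nid1 to Nid2 by -0.03. Of the 5 ratios, Hspg2 to Agrn had the largest difference in both comparisons with healthy muscle.

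**Figure D5:**
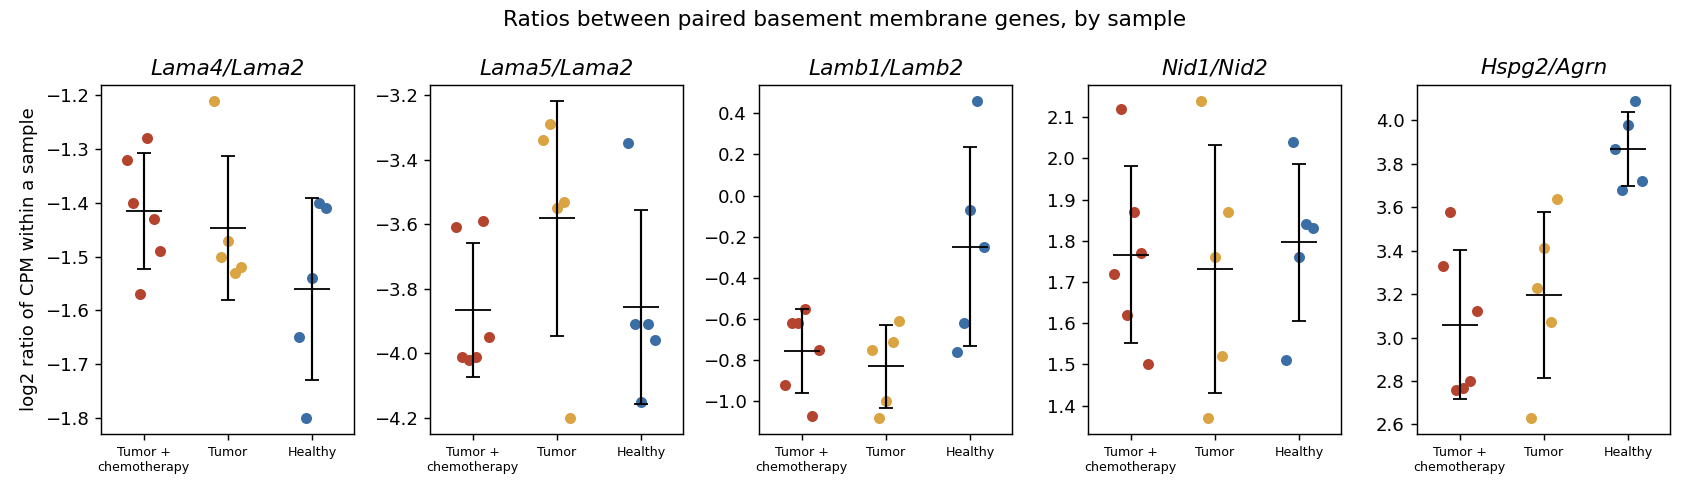
Log2 within-sample ratios of the 5 pairs in the 3 groups, with the tumor with chemotherapy, tumor and healthy groups from left to right. Points are samples and bars the mean ± SD. The perlecan to agrin ratio is the one in which all healthy samples lie above all samples of both tumor-bearing groups.

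Genes around the family were described from lists of matrix and receptor genes. Type IV collagen chains, which build the other basement membrane network, had 5 tested genes, and all 5 fell after chemotherapy against healthy muscle (edgeR, background of 6.41% of all genes lower), with a median log2 fold change of -1.16. Col4a1 averaged 205 ± 40.9 CPM after chemotherapy, 260.0 ± 92.0 CPM in the tumor group and 483 ± 121 CPM in healthy muscle, with a log2 fold change against healthy muscle of -1.24 ± 0.21. Col4a5 had -1.20 ± 0.20 and Col4a3 -1.16 ± 0.20, while Col4a2 had -1.09 ± 0.21 and Col4a4 -0.94 ± 0.19; the last 2 were named after their values were seen. In each of the 5, every chemotherapy sample was below every healthy sample, as in 1.97% of all genes. Without healthy libraries 1, 3 and 4 the log2 fold changes were -0.84 for Col4a1, -0.55 for Col4a5 and -0.77 for Col4a3.

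Of 18 other basement membrane proteins tested, 9 fell after chemotherapy against healthy muscle and none rose, with a median of -0.74, against 6.41% of all genes called lower and 7.3% higher (edgeR). Against tumor alone none of the 18 was called, with a median of -0.33. Smoc2, a calcium-binding matrix protein, averaged 56.4 ± 8.45 CPM after chemotherapy and 101.0 ± 29.7 CPM in healthy muscle, with a log2 fold change of -0.85 ± 0.17 and an adjusted p of 0.0261 in edgeR. Col15a1, a collagen of the zone next to the basement membrane, had -0.81 ± 0.18, and Col6a1, a chain of the type VI collagen around fibers, had -0.93 ± 0.26. Smoc2 had -0.66, Col15a1 -0.59 and Col6a1 -0.49 without healthy libraries 1, 3 and 4. Col18a1, Fbln2, Bgn, Col6a2, Papln and Pxdn also fell, and these 6 were named after their values were seen. Smoc2 and Dcn of this list also stand among the fibroblast markers, and Egfl7 among the endothelial markers. Lama1, a laminin alpha chain outside the family, had at most 17 counts in any sample and was not tested.

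Receptors for laminin and agrin, with their partners in the dystrophin complex, formed a list of 19 tested genes, of which 3 fell and 3 rose after chemotherapy against healthy muscle (edgeR), against 6.41% of all genes called lower and 7.3% higher. The 3 that rose were partners in the complex and not receptors. Dag1, which encodes dystroglycan, the receptor that Lama2 and agrin bind, fell to 273 ± 28.8 CPM, against 393 ± 34.2 CPM in healthy muscle. Its log2 fold change was -0.53 ± 0.13 with an adjusted p of 0.0271 in edgeR. Every chemotherapy sample was below every healthy sample, as in 1.97% of all genes. Sgca, a sarcoglycan of the same membrane complex, fell by 0.53 on the log2 scale, and Bcam, a laminin alpha-5 receptor, by 0.64. Sgcb, another sarcoglycan, rose to 237 ± 35.3 CPM, against 129 ± 55.6 CPM in healthy muscle, with a log2 fold change of 0.88 ± 0.25. The others that rose were Sgcd, also a sarcoglycan, by 0.93 ± 0.26, and Dmd, which encodes dystrophin, the protein that joins the complex to the cytoskeleton inside the fiber, by 1.68 ± 0.48. Dag1 had -0.39, Sgca -0.23 and Sgcb 0.41 without healthy libraries 1, 3 and 4. Bcam, Sgcd and Dmd were named here after their values were seen.

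In the enzymes that attach sugars to dystroglycan, on which laminin binding depends, 1 of 17 tested genes fell and 2 rose after chemotherapy against healthy muscle, against 6.41% of all genes called lower and 7.3% higher. Both counts are near these shares of all genes. Pomt1, which starts the O-mannose chain, fell to 14.3 ± 1.53 CPM, against 22.0 ± 2.55 CPM in healthy muscle, a log2 fold change of -0.62 ± 0.16. Dpm1, which makes the mannose donor, rose to 24.4 ± 7.37 CPM, against 13.2 ± 5.20 CPM. Rxylt1, which adds xylose to the chain, rose to 20.7 ± 3.09 CPM, against 12.9 ± 4.14 CPM in healthy muscle. Its log2 fold change against healthy muscle was 0.70 ± 0.20 and it was 0.61 ± 0.20 against tumor alone, where the adjusted p in edgeR was 0.778. Without healthy libraries 1, 3 and 4 the values against healthy muscle were -0.48 for Pomt1, 0.42 for Dpm1 and 0.38 for Rxylt1.

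Among genes for heparan sulfate, the sugar chain carried by perlecan and agrin, 3 of 17 fell after chemotherapy against healthy muscle and none rose, against 6.41% of all genes called lower and 7.3% higher. Xylt1, which starts the chain, had a log2 fold change of -0.67 ± 0.20, Ndst1, a sulfotransferase that edits it, -0.56 ± 0.17, and Ext2, which extends it, -0.55 ± 0.17. Without healthy libraries 1, 3 and 4 these had -0.31 (Xylt1), -0.27 (Ndst1) and -0.11 (Ext2). Of 15 proteases and inhibitors acting on matrix, 3 fell and 1 rose, the same shares of all genes being 6.41% lower and 7.3% higher. Mmp14 and Mmp15, membrane-bound metalloproteinases, fell by 0.87 and 0.69 on the log2 scale, Mmp2, a gelatinase named after its value was seen, by 0.76, and Adam17, a membrane sheddase, rose by 0.68 ± 0.19. With those 3 healthy libraries left out, Mmp14 had -0.39, Mmp15 -0.22 and Adam17 0.37. None of the genes of these lists was called in the other 2 comparisons.

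Because the muscle was sequenced as a whole, fewer cells of a type and less RNA per cell cannot be told apart. Marker genes of the cells that make these proteins were therefore summed in each sample, and their calls are to be read against 6.41% of all genes called lower and 7.3% higher. The 11 pericyte and smooth muscle markers ranged from 449.7 to 624 CPM after chemotherapy, from 623 to 847 CPM in the tumor group and from 681 to 776 CPM in healthy muscle, and 5 of 10 tested markers fell after chemotherapy against healthy muscle (edgeR). The 12 endothelial markers ranged from 308 to 413 CPM after chemotherapy, from 347 to 477 CPM in the tumor group and from 385 to 444 CPM in healthy muscle, with 1 of 11 tested markers higher and 1 lower, near the shares of all genes. The 12 fibroblast markers ranged from 3378 to 12904 CPM after chemotherapy, from 4059 to 15014 CPM in the tumor group and from 6402 to 16485 CPM in healthy muscle, with 5 of 12 lower. The 11 markers of muscle fibers ranged from 183486 to 226753 CPM after chemotherapy, from 184406 to 253516 CPM in the tumor group and from 225819 to 330656 CPM in healthy muscle, and 3 of 11 fell. Chemotherapy and healthy samples thus overlapped in the endothelial, fibroblast and muscle fiber sums but not in the pericyte sum. Of single genes, 1.97% had every chemotherapy sample below every healthy sample. No marker of these lists was at 0 over all samples. The part of these shifts in the family's levels was not tested.

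The mean pattern of the 9 genes matched by name, without the perlecan entry, was compared with genes outside the family. The 5 most like it, by root mean square difference of centred log2 CPM over 16 samples, were Col5a2 at 0.118, Sbf1 at 0.121, Pdgfrb at 0.123, Vps18 at 0.129 and Ctdsp1 at 0.129. The median over the 8795 genes ranked was 0.519. Col5a2 encodes a fibrillar collagen chain and Pdgfrb a receptor of pericytes and fibroblasts. Of the 9 genes that form that mean, Lama2 was closest to it at 0.099 and Lama5 farthest at 0.249. The perlecan entry, which is not part of the mean, was at 0.307.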

How the data were processed

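The authors deposited raw counts per gene, not normalized. The submitters' processing notes list TopHat2 2.0.10 with Bowtie2, Trim Galore 0.4.1, CASAVA 1.9 and FastQC 0.11.4. No source used here names the genome build, annotation, counting program or strand setting. Even numbers made up 45.9% to 59.5% of counts from 1 to 10, so read mates may have been counted singly in some libraries.

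From these counts, 388 entries without a gene name (0.1018% to 0.3729% of counts) were left out, libraries 11 and 12 were summed, and genes passing edgeR's filter (minimum count 10) were fitted in 1 quasi-likelihood model with a mean per group (edgeR 4.0.16, R 4.3.3, robust, TMM, Benjamini-Hochberg over 11856 genes, called at adjusted p below 0.05). A log2 fold change is given ± SE, taken as its size over the root of the F statistic. Ratios were tested by exact permutation (SciPy 1.17.1). DESeq2 1.42.0, limma-voom 3.58.1 and sva 3.50.0 gave alternatives. The model was tested on simulated counts drawn independently for each gene and sample. They had no variation shared across genes within a sample, so that test does not bear on how far the calls above hold.

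The family and the lists were chosen with earlier results of these data known. From each pathway list, the 3 genes with the smallest p in chemotherapy against healthy muscle were named. The list of other laminin chains is not reported here, apart from Lama1.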

Additional observations from a re-analysis of the deposited data

Results flagged for a closer look

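A sample that lay far from the others of its group was found in 5 of the 108 sets of 5 or 6 samples examined, where chance gives about 1 in 20. For Lamb2, library 11 had 252.3 CPM, above the other 5 chemotherapy samples. For Rxylt1, 1 chemotherapy sample had 26.8 CPM and stood above the rest, and for Adam17 1 tumor sample had 38.9 CPM. The log2 ratio of Lama4 to Lama2 was -1.21 in tumor library 6, higher than in the other 4 tumor samples. The log2 ratio of Lama5 to Lama2 was -4.20 in tumor library 10, lower than in the others.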

How the results depend on the processing

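For chemotherapy against healthy muscle, the count of genes called lower was 7 of 9. It was 0 with 1 surrogate variable (median log2 fold change -0.22, against -0.82) and with the alignment-name suffix as a covariate (-0.65). It was also 0 without healthy libraries 1, 3 and 4 (-0.39). With VM libraries only, which hold 1 healthy sample, the median was -0.60, and only that estimate is read. When 1 sample was left out, the count ranged from 0 to 9. The fits with 0 called no gene of the table, against 865 higher and 760 lower of 11856 with all samples. The fits with 9 called the most. They called 2024 higher and 1775 lower of 11995 without healthy library 2, and 1505 and 1384 of 11828 without library 11. Without healthy library 5 it was 1236 and 1162, and without tumor library 8 it was 1217 and 1070. For tumor against healthy muscle the count was 0 and ranged from 0 to 2 on leaving out 1 sample. The 2 came without healthy library 2, where 245 genes were called higher and 259 lower of 11995. For chemotherapy against tumor it was 0 in every fit. The count of ratios that passed was 0, and 1 with 17 libraries kept apart. That fit takes libraries 11 and 12, which had nearly the same counts, as separate samples, and more samples lower the smallest exact p possible. Perlecan to agrin there gave -0.77 for chemotherapy against healthy muscle, against -0.81 with the 2 libraries summed. The cause of these shifts was not tested.

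Log2 fold changes that changed sign were mostly in tumor against healthy muscle. With 1 surrogate variable they were 0.09 for Lama5, 0.22 for Lamb2 and 0.21 for Agrn; with the suffix as a covariate, 0.19, 0.28 and 0.16; with VM libraries only, 0.18, 0.15 and 0.16; and without healthy libraries 1, 3 and 4, 0.22, 0.19 and 0.31, with Nid2 at 0.04. Lamb2 was 0.02 with total counts only and ranged from -0.33 to 0.02 on leaving out 1 sample. For chemotherapy against healthy muscle, Agrn was 0.04 with 1 surrogate variable. The Lama5 to Lama2 difference there was 0.04 with 17 libraries, 0.04 with VM libraries only, 0.07 without healthy libraries 1, 3 and 4 and -0.08 to 0.12 on leaving out 1 sample. The Lama4 to Lama2 difference with VM libraries only was -0.02 there and -0.03 for tumor against healthy muscle. On leaving out 1 sample, the Nid1 to Nid2 difference ranged from -0.10 to 0.03 for chemotherapy against healthy muscle, from -0.16 to 0.03 for tumor against healthy muscle and from -0.06 to 0.14 for chemotherapy against tumor.

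Scaling by total counts moved the median log2 fold change of all genes to 0.122 for chemotherapy against healthy muscle and 0.133 for tumor against healthy muscle, and changed the genes called in the first from 865 higher and 760 lower to 1669 higher and 348 lower, with 7 of the 9 genes still counted as lower. Low depth limits Lama5 and Agrn most, with 50 and 64 counts in their shallowest samples. No paired analysis was possible because the groups share no replicate number.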

Other observations

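Other cell types were followed through summed marker levels. In edgeR, 6.41% of all genes were called lower and 7.3% higher after chemotherapy than in healthy muscle, and 0.0% in the other comparisons. The counts of called markers below are to be read against these shares. The 10 macrophage markers ranged from 278 to 501 CPM after chemotherapy, from 213 to 393 CPM in the tumor group and from 269.6 to 509 CPM in healthy muscle, and 0 of 10 were called in any comparison by edgeR. The 7 satellite cell markers ranged from 35.4 to 67.9 CPM after chemotherapy, from 39.9 to 52.7 CPM in the tumor group and from 56.1 to 89.5 CPM in healthy muscle, and 1 of 6 tested was lower after chemotherapy than in healthy muscle. The tumor range of this sum lay below the healthy range, with 0 of the 6 tested markers called in that comparison. Of single genes, 0.557% had every tumor sample below every healthy sample. The 8 adipocyte markers ranged from 116 to 557 CPM after chemotherapy, from 93.1 to 246 CPM in the tumor group and from 55.2 to 144 CPM in healthy muscle, and 1 of 7 tested was higher after chemotherapy than in healthy muscle. The 5 red blood cell genes ranged from 124 to 917 CPM in sum after chemotherapy, from 227 to 588 CPM in the tumor group and from 440.4 to 1379 CPM in healthy muscle. All 5 had negative log2 fold changes against healthy muscle, with medians of -0.88 after chemotherapy and -1.06 in the tumor group, and 0 were called in edgeR. Of the Schwann cell (6 tested) and tendon (6 tested) genes, 0 were called.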
